A study of Mus musculus with 15 samples.

Results

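Heat shock proteins and chaperonins are the cell's protein folding machinery, and 76 genes of these families, of 18193 genes with a probe set of their own, were followed in stimulated mouse B cells. Members were chosen by symbol alone: names beginning with Hsp and a family letter, names beginning with Dnaj, and the chaperonin subunits Tcp1 and Cct2 to Cct8. The endoplasmic reticulum (ER) chaperones Hspa5, Hsp90b1, Dnajb9, Dnajb11 and Dnajc3 were left out by the same rule. The members were 13 HSP70 and HSP110 genes, 1 HSP90 gene (Hsp90aa1), 2 genes of the mitochondrial chaperonin, 9 of the cytosolic chaperonin CCT, 8 small heat shock protein genes, 4 DNAJA, 11 DNAJB and 26 DNAJC genes, and 2 genes named for binding heat shock proteins. Hsp90ab1 was not analysed here. Of the 76, 69 reached the array's median signal on at least 3 of the 15 arrays and were tested. The 7 below that level were Cct6b, Dnajb3, Dnajb7, Dnajc5g, Hspa12b, Hspa1l and Hspb9.

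The cells were B cells from AM-14 mice, which carry a transgenic receptor with rheumatoid factor activity, that is, one that binds the animal's own IgG2a. All 5 groups came from these mice, with 3 arrays each: cells in media alone, and cells given goat F(ab')2 anti-IgM, the CpG phosphorothioate oligodeoxynucleotide 1826, PL2-3 (named in the labels as a chromatin immune complex), or both anti-IgM and CpG. Anti-IgM antibody clusters the receptor on the cell surface, CpG DNA is a ligand of the endosomal receptor TLR9, and chromatin complexes reach TLR9 after uptake through the AM-14 receptor, so the study set receptor and Toll-like receptor stimulation side by side. The sources used here did not give the age and sex of the mice, the doses, the duration of stimulation, or whether replicates were separate mice or cultures, so p-values measure only the spread between these arrays, which may be technical.

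HSP70 proteins bind exposed hydrophobic stretches of unfolded clients in cycles of ATP hydrolysis. J-domain proteins (the Dnaj genes) deliver clients and start hydrolysis, and HSP110 proteins and other exchange factors release ADP. HSP90 takes over partly folded clients such as kinases and receptors, while the ring-shaped chaperonins, Hspd1 with its lid Hspe1 in mitochondria and CCT in the cytosol (actin and tubulin are its best known clients), enclose a chain while it folds. Heat shock factors induce many of these genes under proteotoxic stress, with Hspa1a, Hspa1b, Dnajb1 and the small protein Hspb1 among the classical targets. Several family members are also known to be made in larger amounts in growing cells.

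Signals are the deposited linear intensities of 1 probe set per gene, the one with the highest mean. Changes are limma log2 differences ± SE over groups of n = 3 arrays. The words rose and fell are kept for genes whose Benjamini-Hochberg adjusted p, taken over all 13160 tested genes, was under 0.05. Array medians lay between 263 and 514. The 5' to 3' signal ratio of beta-actin, which follows the labelling chemistry, was 0.335 to 0.747 on the 8 Enzo-labelled arrays of media, anti-IgM, CpG and PL2-3 and 0.108 to 0.201 on their 4 Ambion-labelled arrays. It was 0.105 to 0.193 on the 3 anti-IgM+CpG arrays, although the labels give Enzo for 2 of them. Signals of Xist, the transcript of the inactive X chromosome, were 321 to 589 on those 3 arrays and 4252 to 15543 on the other 12. The anti-IgM+CpG group thus stood apart in features that its stimulus cannot be told apart from.

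The B cell label was checked on Cd79a, Cd79b, Ms4a1, Cd22 and Pax5; all 5 exceeded the array median in every group, and 0 of the markers of any class were at 0. Their summed signal was 174961 to 240613 in media, 50182 to 73744 with anti-IgM, 85940 to 91847 with CpG, 32314 to 69591 with PL2-3 and 31029 to 52318 with both agents. With anti-IgM, CpG, PL2-3 and both agents, 5, 3, 4 and 5 of the 5 B cell markers fell. In the same order 3, 3, 2 and 6 of 8 myeloid markers and 0, 4, 5 and 4 of 5 erythroid markers fell. So did 3, 2, 1 and 3 of 6 T cell markers and 1, 1, 1 and 2 of 4 NK cell markers, and 0 rose in any class. Among all tested genes 9.32%, 16.9%, 13.5% and 24.8% fell. The sum of 8 myeloid markers was 112927 to 241292 in media, 53057 to 92408 with anti-IgM, 45295 to 89757 with CpG, 47936 to 77724 with PL2-3 and 12432 to 146683 with both agents. For 5 erythroid markers the sum was 77158 to 149692 in media, 37551 to 66526 with anti-IgM, 31478 to 57018 with CpG, 32121 to 43276 with PL2-3 and 30408 to 104067 with both agents. Sums of 6 T cell and 4 NK cell markers were 5060 to 6534 and 5292 to 6528 in media and between 1820 and 4327 and between 1385 and 5057 on the stimulated arrays. Fewer cells of a type and less RNA per cell cannot be told apart in these bulk samples, and the part of other cell types in the changes below was not tested.

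Every stimulus raised a common set of chaperone genes. With anti-IgM 21 of the 69 members rose and 4 fell, where 10.1% of all tested genes rose and 9.32% fell (19.5% either way). With CpG 27 rose and 8 fell, against 13.1% and 16.9% of all genes (30.1% either way). With PL2-3 21 rose and 7 fell, against 12.4% and 13.5% (25.9% either way). With anti-IgM and CpG together 28 rose and 10 fell, against 17.2% and 24.8% (41.9% either way). The excess over the background lay in the rises: the share of members that fell was below the background share in each of the 4 comparisons.

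The median log2 change over the 69 members was 0.34 with anti-IgM, 0.11 with CpG, 0.23 with PL2-3 and 0.18 with both agents, where the median over all tested genes was -0.13, -0.21, -0.10 and -0.29. The signals of stimulated and media arrays did not overlap at all for 29, 40, 31 and 37 members in that order, which is 42%, 58%, 44.9% and 53.6% of the members, against 30.8%, 40.6%, 33.9% and 50.3% of all genes. All 4 comparisons use the same 3 media arrays, and their values are therefore given side by side without a measure of agreement.

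In all 4 comparisons 20 members rose (7.55% of all tested genes did) and 2 fell (6.09% did). The 20 were Hsp90aa1, Hspa4, Hspa9, Hsph1, Hspd1, Hspe1, Hspbp1, Tcp1, Cct5, Cct6a, Cct7, Cct8, Dnaja1, Dnaja2, Dnajc2, Dnajc8, Dnajc11, Dnajc15, Dnajc21 and Dnajc27, and the 2 were Dnajc9 and Dnajc12. A further 10 members rose and 12 fell in some of the comparisons but not in others, 0 rose in one and fell in another, and 25 were called in none.

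The splits moved with the scaling, for the members as for all genes. Scaling every array to the same median signal lifted the median change of all genes to 0.14, 0.18, 0.11 and 0.36. With it 23 members were higher and 0 lower with anti-IgM, against 12.3% and 3.21% of all genes, and 30 and 1 with CpG, against 19.8% and 5.68%. With PL2-3 the split was 21 and 0, against 12.9% and 6.31%, and with both agents 35 and 1, against 32.6% and 7.02%. Quantile normalization gave 28 and 4 with both agents, against 18.7% and 15.6%. Without media replicate 3, the media array with the highest myeloid and erythroid sums, the splits were 17 and 0, 22 and 4, 19 and 1, and 25 and 4. Without PL2-3 replicate 1 the split with PL2-3 was 22 and 1, and without anti-IgM replicate 3 that with anti-IgM was 17 and 1. With the labelling class read from the actin ratio in place of the labelled kit, it was 27 and 7 with both agents. Shares over all genes are not given for the splits with an array left out or with this labelling class. Those splits are therefore not set against a background.

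**Figure D1:**
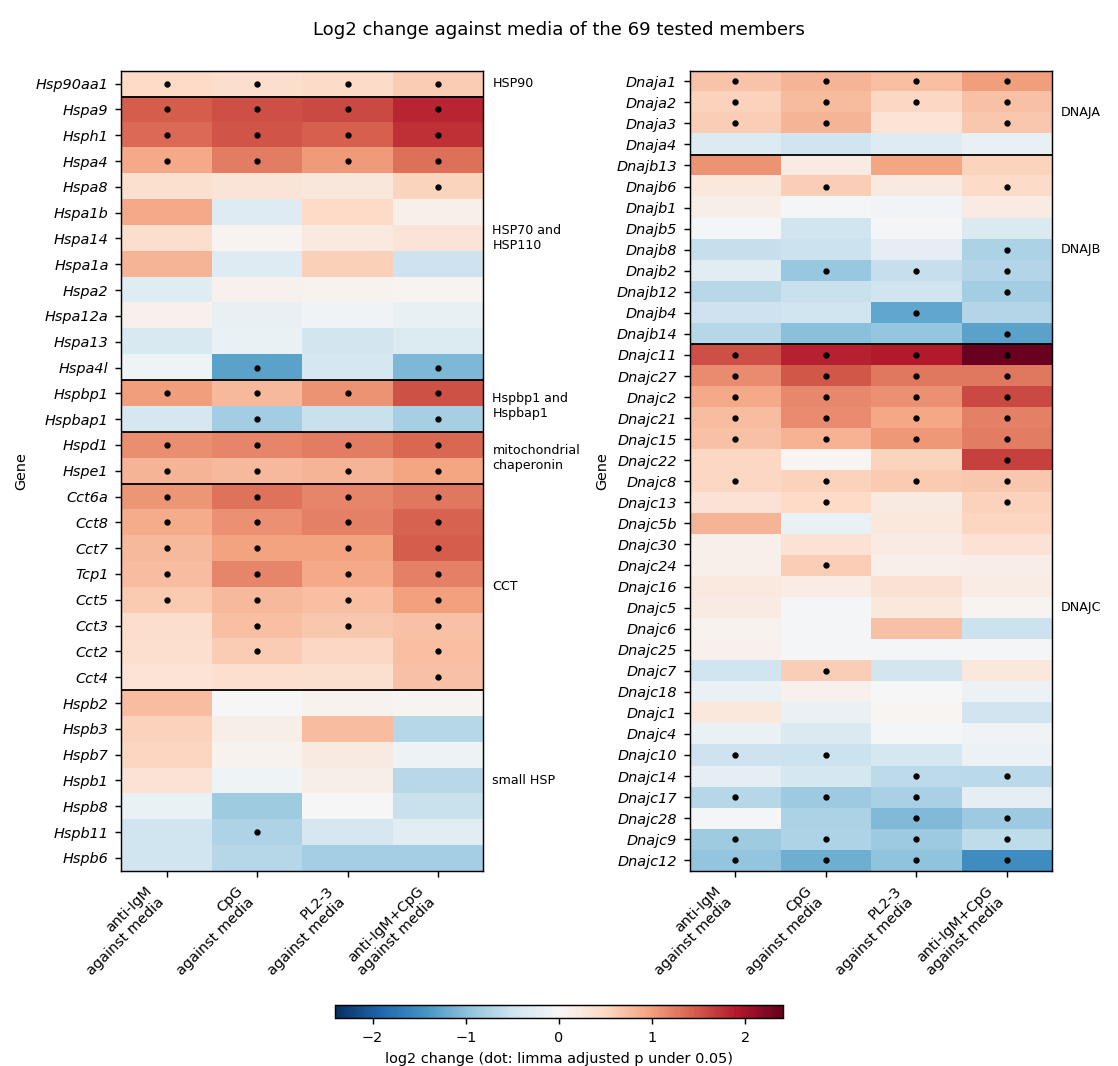
Log2 change against media (colour) of the 69 tested members in rows, grouped by role, for the 4 stimuli in columns; a dot marks a limma adjusted p under 0.05. Mitochondrial chaperonin and CCT genes are warm throughout, the 7 small heat shock protein genes carry 1 dot, and the DNAJC genes span the widest range, from Dnajc11 to Dnajc12.

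Both genes of the mitochondrial chaperonin rose with every stimulus. Hspd1, the barrel of the mitochondrial chaperonin, had signals of 31768, 36571 and 25048 in media, 70374, 62781 and 67894 with anti-IgM, 72507, 65041 and 71613 with CpG, 73619, 72025 and 70412 with PL2-3 and 90944, 74581 and 74352 with both agents. Hspe1, its lid, read 26489, 29113 and 17818 in media, 49315, 39351 and 39494 with anti-IgM, 42305, 39009 and 41545 with CpG, 39205, 45447 and 42740.5 with PL2-3 and 53674, 45744 and 40620.3 with both agents. For both genes every stimulated array lay above every media array. Hspd1 was highest on the arrays with both agents, while the Hspe1 signals of the 4 stimulated groups overlapped. Hspd1 rose by 1.12 ± 0.14 with anti-IgM, 1.18 ± 0.14 with CpG, 1.23 ± 0.14 with PL2-3 and 1.37 ± 0.14 with both agents (limma adjusted p 3.09e-06 to 9.85e-05). The rises of Hspe1 were 0.82 ± 0.16 with anti-IgM, 0.77 ± 0.16 with CpG, 0.82 ± 0.16 with PL2-3 and 0.95 ± 0.16 with both agents (limma adjusted p 0.000208 to 0.00189). Both held in all alternatives run, 19 each with anti-IgM, CpG and PL2-3 and 18 with both agents.

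Hspd1 and Hspe1 lie head to head and share the stretch between their start sites, which is shown because both genes rose and it holds a heat shock element of more units than the search asked for. It is chr1:55087933-55088147 of GRCm38.p6, 215 bases, plus strand, from RefSeq, running from an Hspd1 start at its left to the Hspe1 start at its right. Another Hspd1 start is listed beyond the Hspe1 start, at 55088243. The window before that start held no heat shock element and had an E-box. Capitals mark an 18-base run of alternating TTC and GAA units with 2 bases between them, the arrangement that heat shock factors bind.
Hspd1-Hspe1 interval: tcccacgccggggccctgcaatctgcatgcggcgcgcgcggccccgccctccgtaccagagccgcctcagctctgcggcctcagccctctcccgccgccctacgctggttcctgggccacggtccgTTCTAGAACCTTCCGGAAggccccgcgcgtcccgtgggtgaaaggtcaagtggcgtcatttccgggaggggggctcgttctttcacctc
The motifs searched on both strands of the 250 bases before each RefSeq start were the 2-unit element (GAANNTTC or TTCNNGAA), the 3-unit element (GAANNTTCNNGAA or TTCNNGAANNTTC, each of which contains 2-unit elements), and the E-box CACGTG bound by Myc and related factors. Promoter windows were found for 62 of the 76 members. The 3-unit element was in 3 of them (Hspd1, Hspe1 and Dnajb6), 4.84%, against 0.514% of 27025 genes; the windows of Hspd1 and Hspe1 hold the same element, the one in capitals above, so it is counted for both. The 2-unit element was in 16, 25.8% against 14.5%, and the E-box in 5, 8.06% against 6.86%. A match says only that these letters are in the window.

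Among the HSP70 family, the mitochondrial Hspa9 (mortalin, the motor of protein import) changed most. Its signals were 10339.6, 12646 and 5518 in media, 24499, 21332 and 28654 with anti-IgM, 25527, 25150.0 and 28592 with CpG, 28388, 24263 and 28501 with PL2-3 and 28368, 34704 and 33629 with both agents. Hspa9 rose by 1.45 ± 0.23 with anti-IgM, 1.55 ± 0.23 with CpG, 1.58 ± 0.23 with PL2-3 and 1.83 ± 0.23 with both agents (limma adjusted p 1.41e-05 to 0.00041). The lowest media value was on replicate 3, and all 12 stimulated arrays were above the highest media array. Of its 4 other tested probe sets, 1 went the opposite way in each comparison, at -0.06, -0.12, -0.33 and -0.78, and the highest of them gave 1.28, 0.85, 1.01 and 1.60.

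Hsph1, the inducible HSP110 exchange factor, rose in all 4 comparisons too. Its signals were 11234, 10173 and 8350.2 in media, 26277, 20739 and 30200.2 with anti-IgM, 25453, 25131 and 34467 with CpG, 26179.5, 23836 and 30891 with PL2-3 and 35988, 30659.9 and 33846 with both agents. The rises were 1.36 ± 0.17 with anti-IgM, 1.50 ± 0.17 with CpG, 1.44 ± 0.17 with PL2-3 and 1.76 ± 0.17 with both agents (limma adjusted p 1.45e-06 to 7.56e-05). Its first promoter window is shown because it is the only member window that held both a heat shock element and an E-box: chr5:149636316-149636565, GRCm38.p6, minus strand, from RefSeq, written 5' to 3' with the start just after its last base. The first run of capitals is the 2-unit element, 54 to 47 bases upstream, and the second the E-box, 19 to 14 bases upstream.
Hsph1 promoter: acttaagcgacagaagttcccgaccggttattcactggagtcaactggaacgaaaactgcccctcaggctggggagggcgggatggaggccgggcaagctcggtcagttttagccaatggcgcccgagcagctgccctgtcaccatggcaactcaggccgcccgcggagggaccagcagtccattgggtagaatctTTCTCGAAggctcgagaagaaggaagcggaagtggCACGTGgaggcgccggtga
Hspa4, another HSP110 protein, rose as well. Hspa4 signals were 12926, 12320.4 and 10365 in media, 21973, 19419.7 and 26354 with anti-IgM, 31624, 23331 and 28544 with CpG, 26119.6, 20352 and 25979.9 with PL2-3 and 31980.5, 27376 and 29503 with both agents. They rose by 0.92 ± 0.16 with anti-IgM, 1.22 ± 0.16 with CpG, 1.02 ± 0.16 with PL2-3 and 1.32 ± 0.16 with both agents (limma adjusted p 1.41e-05 to 0.00101). The media arrays were the lowest 3 of the 15 for both genes. One of 3 other tested probe sets of Hspa4 fell below 0 with anti-IgM (-0.13) and with both agents (-0.56).

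Hspa8, the constitutive cytosolic HSP70, moved less on the probe set used. Its signals were 77440.3, 87231 and 74150.3 in media, 118493, 86563 and 106962 with anti-IgM, 102871, 93606 and 100343 with CpG, 95274, 92922 and 98098 with PL2-3 and 152910.0, 99474 and 98567 with both agents. The changes were 0.38 ± 0.17 with anti-IgM, 0.32 ± 0.17 with CpG, 0.26 ± 0.17 with PL2-3 and 0.53 ± 0.17 with both agents. Only the last passed the test (limma adjusted p 0.0217). It was 0.32 without anti-IgM+CpG replicate 1 and did not pass (0.11), nor did it without media replicate 1 (0.0625) or 3 (0.0668). Another of its probe sets gave 0.70, 0.75, 0.74 and 0.85. With both agents all 3 other tested probe sets of Hspa8 gave more than the one used, at 0.81 to 0.87. Of the 11 tested HSP70 and HSP110 genes 3 rose with anti-IgM, 3 with CpG, 3 with PL2-3 and 4 with both agents. The shares of all tested genes that rose were 10.1%, 13.1%, 12.4% and 17.2% in that order. The family members Hspa2, Hspa12a, Hspa13 and Hspa14 were called in no comparison against media.

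Hspa1a, Hspa1b, Dnajb1 and Hspb1, named above among the classical heat shock targets, did not pass the test in any comparison against media. Hsph1 and Hsp90aa1, which are also inducible, rose with every stimulus, so the inducible members were split. Hspa1a, the stress-inducible HSP70, read 1873, 1990.0 and 1057 in media, 2834, 4354 and 1867 with anti-IgM, 635, 2061 and 1475 with CpG, 2698, 2983 and 1693 with PL2-3 and 813, 1496 and 1067 with both agents. Its changes were 0.82 ± 0.36 with anti-IgM, -0.32 ± 0.36 with CpG, 0.57 ± 0.36 with PL2-3 and -0.51 ± 0.36 with both agents. Its near copy Hspa1b read 3162, 2698 and 2459 in media, 3978, 8365 and 4285 with anti-IgM, 1118, 2960.4 and 3239 with CpG, 4005, 5418 and 2650.3 with PL2-3 and 2064, 4637 and 2801 with both agents. The changes of Hspa1b were 0.90 ± 0.39 with anti-IgM, -0.31 ± 0.39 with CpG, 0.48 ± 0.39 with PL2-3 and 0.12 ± 0.39 with both agents. With anti-IgM every Hspa1b signal was above every media signal, while the other groups overlapped with media; the spread within groups was wide, and the 95% interval with anti-IgM ran from 0.05 to 1.59 for Hspa1a and from 0.08 to 1.73 for Hspa1b. With the arrays scaled to the same median both passed with anti-IgM, at 1.10 (limma adjusted p 0.0481) and 1.19 (0.0461). How signal divides between the copies is uncertain, since their sequences are nearly identical. The promoter windows differ at 3 of 250 bases, and that of Hspa1b is shown as the classical heat-inducible promoter: chr17:34959239-34959488, GRCm38.p6, minus strand, from RefSeq, with a 2-unit element in capitals 104 to 97 bases upstream of the start.
Hspa1b promoter: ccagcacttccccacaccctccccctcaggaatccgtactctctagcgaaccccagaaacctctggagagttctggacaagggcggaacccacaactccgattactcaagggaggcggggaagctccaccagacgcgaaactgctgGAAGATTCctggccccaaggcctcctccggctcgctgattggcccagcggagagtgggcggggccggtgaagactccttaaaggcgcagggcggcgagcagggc

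Dnajb1, the J protein that partners the inducible HSP70, gave estimates near 0. Its signals were 7569.7, 5763 and 14518 in media, 9248, 7679 and 12059 with anti-IgM, 7738, 7919 and 9203 with CpG, 7822, 6068 and 11592 with PL2-3 and 9387, 12073 and 8496 with both agents. The changes were 0.14 ± 0.24 with anti-IgM, -0.06 ± 0.24 with CpG, -0.07 ± 0.24 with PL2-3 and 0.20 ± 0.24 with both agents. They joined opposite signs within the kits. In the same order they were 0.35, 0.24, 0.06 and 0.68 on Enzo arrays and -0.27, -0.65, -0.32 and -0.77 on Ambion arrays. Hspb1, the best known small heat shock protein, read 1822, 1618 and 1583 in media, 2329, 3492 and 1224 with anti-IgM, 1709.6, 2483 and 849 with CpG, 1863, 2758 and 1228 with PL2-3 and 1285, 756 and 1089 with both agents. Its changes were 0.35 ± 0.31 with anti-IgM, -0.11 ± 0.31 with CpG, 0.14 ± 0.31 with PL2-3 and -0.67 ± 0.31 with both agents. The media values of Dnajb1 spanned the whole range of the 15 arrays, and those of Hspb1 lay inside the range of the anti-IgM, CpG and PL2-3 groups. With both agents every Hspb1 signal was below every media signal. Of the 7 small heat shock protein genes tested, 0 rose against media with any stimulus by limma, and Hspb11 alone fell, with CpG (-0.74 ± 0.25, adjusted p 0.0375). That call was lost with the arrays scaled to the same median. Between 10.1% and 17.2% of all tested genes rose and between 9.32% and 24.8% fell. With 7 genes these counts cannot be told apart from such shares. Over all 69 tested members an unadjusted p under 0.05 was reached by 49.3% with anti-IgM, 59.4% with CpG, 49.3% with PL2-3 and 58% with both agents, against 31.5%, 40.3%, 36.6% and 49.8% of all genes.

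**Figure D2:**
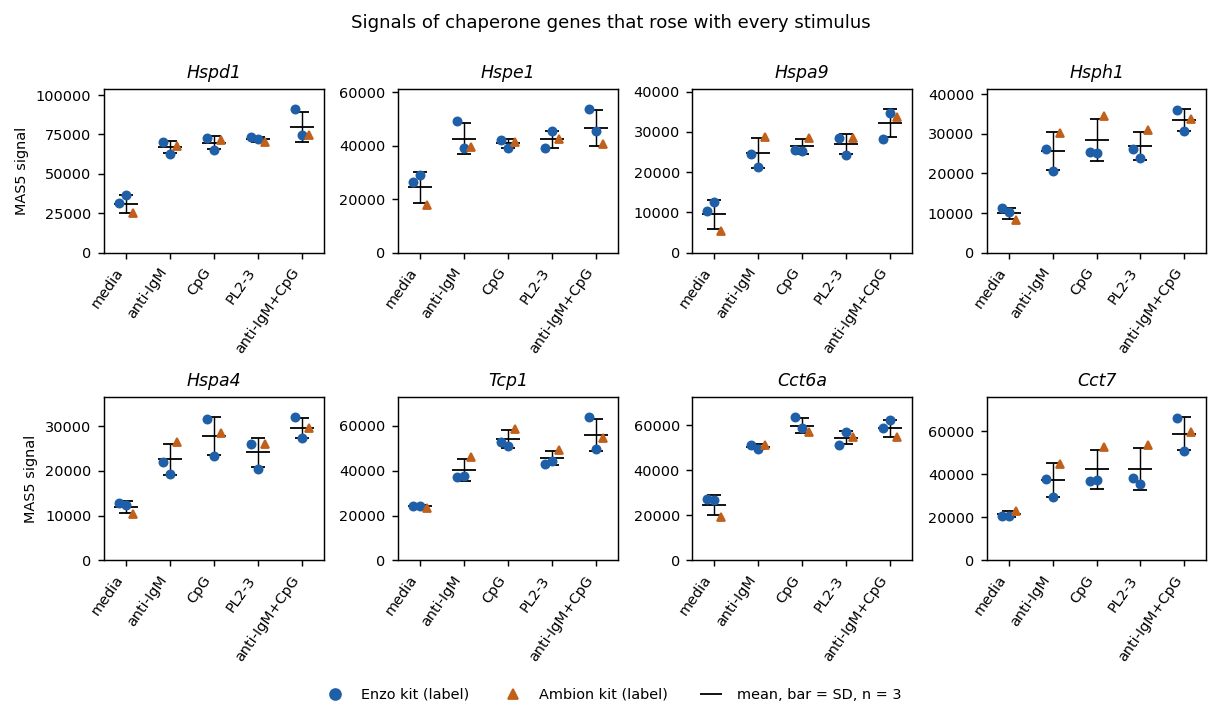
MAS5 signal (linear axis from 0) on each of the 15 arrays for 8 members that rose with every stimulus; circles are arrays labelled as Enzo and triangles as Ambion, and the line and bar give the mean and SD of 3 arrays. In each panel the 3 media arrays lie below all 12 stimulated arrays.

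CCT, the cytosolic chaperonin, is a double ring of distinct subunits, each from its own gene. Of 8 tested subunit genes 5 rose with anti-IgM, 7 with CpG, 6 with PL2-3 and 8 with both agents, and 0 fell in any of the 4 comparisons. Of all tested genes 10.1%, 13.1%, 12.4% and 17.2% rose. Their median change was 0.68, 0.87, 0.82 and 1.10. Cct6a had signals of 27499, 26729 and 19394 in media, 51225, 49401 and 51094 with anti-IgM, 63705, 58808 and 57209 with CpG, 51380.1, 57145 and 54820.1 with PL2-3 and 58898, 62511 and 54729 with both agents. It rose by 1.06 ± 0.13 with anti-IgM, 1.30 ± 0.13 with CpG, 1.16 ± 0.13 with PL2-3 and 1.27 ± 0.13 with both agents (limma adjusted p 3.18e-06 to 8.95e-05). Cct8 read 15001, 19921 and 11313 in media, 25792, 25534 and 33066 with anti-IgM, 31207, 28937 and 36576 with CpG, 35822, 29812 and 39182 with PL2-3 and 37962, 45627 and 38133 with both agents. The rises were 0.89 ± 0.19 with anti-IgM, 1.09 ± 0.19 with CpG, 1.21 ± 0.19 with PL2-3 and 1.42 ± 0.19 with both agents (limma adjusted p 2.98e-05 to 0.00394). In both genes the 3 media arrays were the lowest of the 15, and for Cct6a every CpG array was above every anti-IgM array.

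The signals of Cct7 were 20510.5, 20688 and 23189.7 in media, 37604, 29453 and 44975 with anti-IgM, 36660.2, 37553 and 52841 with CpG, 38196, 35339 and 53559.7 with PL2-3 and 66084, 50703 and 59610.1 with both agents. Cct7 rose by 0.78 ± 0.15 with anti-IgM, 0.96 ± 0.15 with CpG, 0.96 ± 0.15 with PL2-3 and 1.44 ± 0.15 with both agents (limma adjusted p 3.35e-06 to 0.00214). With both agents its estimate was the highest of the 8 subunits. Tcp1, the alpha subunit, read 24434, 24384 and 23559.7 in media, 37400.3, 37856 and 46238 with anti-IgM, 52781, 51117 and 58762 with CpG, 43132, 44479 and 49285 with PL2-3 and 63938, 49762 and 54620.2 with both agents. Its rises were 0.74 ± 0.13 with anti-IgM, 1.16 ± 0.13 with CpG, 0.92 ± 0.13 with PL2-3 and 1.21 ± 0.13 with both agents (limma adjusted p 4.39e-06 to 0.00107). The 3 media arrays of Tcp1 agreed closely, and the CpG arrays lay above the anti-IgM and PL2-3 arrays.

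Cct5 had signals of 33004, 28642 and 31598 in media, 48617, 41558 and 53932 with anti-IgM, 51444, 49487 and 59127 with CpG, 47286, 47447 and 59319.9 with PL2-3 and 64477, 61795 and 58349 with both agents. It rose by 0.62 ± 0.13 with anti-IgM, 0.78 ± 0.13 with CpG, 0.72 ± 0.13 with PL2-3 and 0.99 ± 0.13 with both agents (limma adjusted p 3.06e-05 to 0.00385). For Cct3 the signals were 50784, 54860.5 and 44871 in media, 72661, 57064 and 72314 with anti-IgM, 98979.8, 79436 and 71518 with CpG, 82822, 71405 and 80886 with PL2-3 and 98744, 66442 and 82754 with both agents. The changes were 0.42 ± 0.17 with anti-IgM, 0.72 ± 0.17 with CpG, 0.64 ± 0.17 with PL2-3 and 0.71 ± 0.17 with both agents. The first of these did not pass the test (limma adjusted p 0.105), although no anti-IgM array of Cct3 overlapped with media. One of 6 other tested probe sets of Cct3 turned the other way with CpG (-0.08), PL2-3 (-0.30) and both agents (-1.77).

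Cct2 varied widely among the media arrays, with signals of 60252, 64819.8 and 39179 in media, 75604, 60266 and 78083 with anti-IgM, 90362, 77875 and 75937 with CpG, 85207, 65285 and 77711 with PL2-3 and 111064, 74763 and 81460.4 with both agents. Its changes were 0.41 ± 0.20 with anti-IgM, 0.60 ± 0.20 with CpG, 0.50 ± 0.20 with PL2-3 and 0.71 ± 0.20 with both agents. Those with CpG and with both agents passed the test (limma adjusted p 0.0292 and 0.00822), but without media replicate 3 they were 0.38 and 0.49 and did not (0.186 and 0.0626), nor did that with CpG without CpG replicate 1 (0.103) or 3 (0.082). Cct4 read 40177, 42167 and 33037 in media, 46333, 44729 and 53028 with anti-IgM, 45137, 52529 and 54643 with CpG, 44684, 47426 and 57805 with PL2-3 and 79276, 53433 and 56790.2 with both agents. The changes were 0.32 ± 0.17 with anti-IgM, 0.40 ± 0.17 with CpG, 0.38 ± 0.17 with PL2-3 and 0.70 ± 0.17 with both agents. Only the last passed (limma adjusted p 0.0038), and there 2 of 5 other tested probe sets of Cct4 went the opposite way (lowest -1.25). One of 2 other tested probe sets of Cct2 was negative with CpG (-0.06). On the probe set used, all 8 subunits had a positive estimate in all 4 comparisons.

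Hsp90aa1, the inducible cytosolic HSP90, had signals of 37254, 39829 and 35888 in media, 52196, 51992 and 52809 with anti-IgM, 51866, 48368 and 51534 with CpG, 49333, 57484 and 49458 with PL2-3 and 65799, 57090.4 and 50855 with both agents. It rose by 0.48 ± 0.13 with anti-IgM, 0.43 ± 0.13 with CpG, 0.46 ± 0.13 with PL2-3 and 0.61 ± 0.13 with both agents (limma adjusted p 0.00118 to 0.0187). The rise was small beside those of the chaperonins but the media arrays were again below all others. The call with anti-IgM was lost without media replicate 1 (limma adjusted p 0.051) or anti-IgM replicate 3 (0.0756), that with PL2-3 without PL2-3 replicate 2 (0.0587), and that with CpG without media replicate 1 (0.0589), CpG replicate 1 (0.062) or CpG replicate 3 (0.0934). Of its 4 other tested probe sets, 1 fell below 0 with CpG (-0.06) and with PL2-3 (-0.35), and the highest gave 1.34 and 1.23 there.

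Hspbp1, an exchange factor that binds HSP70, read 2510.1, 2808 and 2614 in media, 5293, 3757 and 7649 with anti-IgM, 3781, 3529 and 7277 with CpG, 4759, 4197 and 8997 with PL2-3 and 6446, 8787 and 8156 with both agents. Its rises were 0.996 ± 0.23 with anti-IgM, 0.78 ± 0.23 with CpG, 1.07 ± 0.23 with PL2-3 and 1.52 ± 0.23 with both agents (limma adjusted p 7.66e-05 to 0.0164). In the anti-IgM, CpG and PL2-3 groups the Ambion-labelled replicate 3 was the highest array. Hspbap1, named for binding Hspb1, read 1711, 1832 and 1966 in media, 1792, 1529 and 943 with anti-IgM, 1156, 1051 and 821 with CpG, 972, 1797 and 1087 with PL2-3 and 796, 1566 and 859.6 with both agents. The changes were -0.40 ± 0.27 with anti-IgM, -0.83 ± 0.27 with CpG, -0.54 ± 0.27 with PL2-3 and -0.79 ± 0.27 with both agents. It fell with CpG (limma adjusted p 0.0302) and with both agents (0.028); one of 3 other tested probe sets went up there, at 0.50 and 0.05, and both calls were lost with the arrays scaled to the same median.

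The J proteins were a mixed family. Of the 4 DNAJA genes, the closest relatives of the bacterial DnaJ, 3 rose with anti-IgM, CpG and both agents and 2 with PL2-3. In that order 10.1%, 13.1%, 17.2% and 12.4% of all tested genes rose. Dnaja1 had signals of 13446, 14452 and 14021 in media, 21184, 21035 and 25652 with anti-IgM, 23831, 21835 and 28334 with CpG, 22034, 20278 and 27599 with PL2-3 and 29009, 28461 and 27063 with both agents. It rose by 0.69 ± 0.13 with anti-IgM, 0.81 ± 0.13 with CpG, 0.72 ± 0.13 with PL2-3 and 1.01 ± 0.13 with both agents (limma adjusted p 2.40e-05 to 0.00191). Dnaja2 read 24099, 23323 and 20532 in media, 31902, 36072 and 31203 with anti-IgM, 38546, 39374 and 36534 with CpG, 29892, 36539.7 and 30066 with PL2-3 and 39099, 36195 and 35919.6 with both agents. The rises were 0.54 ± 0.12 with anti-IgM, 0.75 ± 0.12 with CpG, 0.50 ± 0.12 with PL2-3 and 0.71 ± 0.12 with both agents (limma adjusted p 0.000269 to 0.0065). Neither gene's media arrays overlapped with any stimulated group, but one of 3 other tested probe sets of Dnaja2 fell below 0 in each comparison (-0.16, -0.15, -0.57 and -2.06).

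Dnaja3, the mitochondrial DNAJA protein, read 2598, 2389 and 3381 in media, 4286, 3171 and 5374 with anti-IgM, 4364, 5050.4 and 5298 with CpG, 3308, 2634 and 4917 with PL2-3 and 3724, 4250.3 and 5199 with both agents. Its changes were 0.59 ± 0.17 with anti-IgM, 0.81 ± 0.17 with CpG, 0.34 ± 0.17 with PL2-3 and 0.64 ± 0.17 with both agents. All but that with PL2-3 (limma adjusted p 0.168) passed, and that with anti-IgM did not without media replicate 2 (0.0692) or 3 (0.0666) or anti-IgM replicate 1 (0.111) or 3 (0.096). Replicate 3 was the highest array in each group, and the anti-IgM and PL2-3 signals overlapped with media.

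Of 9 tested DNAJB genes 0 rose with anti-IgM or PL2-3 and 1 rose with CpG and with both agents, which was Dnajb6, a suppressor of protein aggregation. With anti-IgM, CpG, PL2-3 and both agents 10.1%, 13.1%, 12.4% and 17.2% of all tested genes rose, so these counts are near the background. Dnajb6 signals were 13804, 9779 and 11352 in media, 14354, 14913 and 12026 with anti-IgM, 17791, 17138 and 17173 with CpG, 14038, 14127 and 11992 with PL2-3 and 17169.7, 16608 and 13805 with both agents. The changes were 0.25 ± 0.14 with anti-IgM, 0.59 ± 0.14 with CpG, 0.21 ± 0.14 with PL2-3 and 0.45 ± 0.14 with both agents. The CpG arrays were close together and above all media arrays (limma adjusted p 0.00484, and 0.0173 with both agents), while one of 3 other tested probe sets went the other way at -0.31 and -0.75. With both agents the change was 0.30 without media replicate 2 and did not pass (limma adjusted p 0.104). Dnajb2, a ubiquitin-binding J protein, read 5000.4, 4781 and 7917 in media, 5346, 4827 and 4083 with anti-IgM, 3205, 2686 and 3204 with CpG, 3762, 3704 and 4283 with PL2-3 and 3809, 3180.3 and 3481 with both agents. Its changes were -0.28 ± 0.18 with anti-IgM, -0.91 ± 0.18 with CpG, -0.55 ± 0.18 with PL2-3 and -0.71 ± 0.18 with both agents. It fell with CpG (limma adjusted p 0.00148), PL2-3 (0.0387) and both agents (0.00588). Other falls were those of Dnajb4 with PL2-3 (-1.25 ± 0.39) and, with both agents, of Dnajb8 (-0.75 ± 0.23) and of the ER membrane J proteins Dnajb12 (-0.84 ± 0.31) and Dnajb14 (-1.28 ± 0.47). The Dnajb14 signals with both agents overlapped with media, and its change was -1.81 on Enzo arrays and -0.21 on Ambion arrays. All of these DNAJB falls, those of Dnajb2 included, were lost with the arrays scaled to the same median.

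The DNAJC genes share only the J domain. They held the highest member in each comparison against media, and the lowest with anti-IgM and with both agents. Of 25 tested 6 rose and 4 fell with anti-IgM, 9 and 4 with CpG, 6 and 5 with PL2-3, and 8 and 4 with both agents. As shares, 24%, 36%, 24% and 32% rose and 16%, 16%, 20% and 16% fell, against 10.1%, 13.1%, 12.4% and 17.2% and 9.32%, 16.9%, 13.5% and 24.8% of all genes. Dnajc11, a mitochondrial J protein tied to the cristae organising complex, had signals of 3089, 2147 and 1879 in media, 7041, 5132 and 9292 with anti-IgM, 8513, 7421 and 9799 with CpG, 8387, 7699 and 10839.5 with PL2-3 and 11059, 12491 and 13644 with both agents. Its rises were the largest of all members, at 1.55 ± 0.21 with anti-IgM, 1.84 ± 0.21 with CpG, 1.90 ± 0.21 with PL2-3 and 2.38 ± 0.21 with both agents (limma adjusted p 7.24e-07 to 0.000134). All 12 stimulated arrays lay above the 3 media arrays. Its other tested probe set rose less, by 0.78, 0.82, 0.71 and 0.78.

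Dnajc2, which works on the ribosome with nascent chains, read 7741, 7245 and 9039.7 in media, 13172, 12386 and 21029.5 with anti-IgM, 16689, 14405 and 23224 with CpG, 13442, 15231 and 24217 with PL2-3 and 21619, 24107 and 26567 with both agents. It rose by 0.91 ± 0.15 with anti-IgM, 1.15 ± 0.15 with CpG, 1.09 ± 0.15 with PL2-3 and 1.58 ± 0.15 with both agents (limma adjusted p 1.14e-06 to 0.000527). Replicate 3 was the highest array of every group, and all media arrays were below all others. One of 2 other tested probe sets of Dnajc2 was negative with CpG (-0.11). Dnajc27, a small GTPase with a J domain, read 1244, 1498 and 300.5 in media, 1870.5, 2601 and 1489 with anti-IgM, 2306, 2768 and 2527 with CpG, 2352, 2577 and 1585 with PL2-3 and 1495, 2705 and 2448 with both agents. The rises were 1.13 ± 0.36 with anti-IgM, 1.50 ± 0.36 with CpG, 1.26 ± 0.36 with PL2-3 and 1.27 ± 0.36 with both agents (limma adjusted p 0.00452 to 0.0352). Media replicate 3 was far below the other media arrays of Dnajc27, and the anti-IgM and anti-IgM+CpG groups overlapped with media. Without media replicate 3 its changes were 0.56, 0.93, 0.69 and 0.70, of which only that with CpG passed (limma adjusted p 0.24, 0.0286, 0.109 and 0.0701), and on Enzo arrays only they were 0.66, 0.85, 0.82 and 0.54 without a call.

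The other DNAJC members that rose in all 4 comparisons were Dnajc8 of the spliceosome, Dnajc15 of the mitochondrial inner membrane and Dnajc21 of ribosome assembly. Dnajc15 rose by 0.70 ± 0.14 with anti-IgM, 0.83 ± 0.14 with CpG, 1.04 ± 0.14 with PL2-3 and 1.23 ± 0.14 with both agents. Dnajc8 rose by 0.50 ± 0.15 with anti-IgM, 0.56 ± 0.15 with CpG, 0.63 ± 0.15 with PL2-3 and 0.64 ± 0.15 with both agents. Dnajc21 rose by 0.74 ± 0.20 with anti-IgM, 1.14 ± 0.20 with CpG, 0.93 ± 0.20 with PL2-3 and 1.21 ± 0.20 with both agents. The value of Dnajc21 with both agents depended on the probe set, since all 3 other tested ones were negative there (-1.07 to -0.06) and their mean with it was -0.16. One of the 3 was also negative with anti-IgM (-0.09) and one with CpG (-0.57). Dnajc22 passed the test with both agents (1.64 ± 0.63, limma adjusted p 0.0472), with media signals of 60.4, 162 and 246. With both agents its signals were 620.5, 495 and 704. It reached the array median on 5 arrays: all the anti-IgM+CpG arrays, anti-IgM replicate 2 and PL2-3 replicate 2. Dnajc22 thus met the filter of 3 arrays only through the group in which it was high. This call therefore depends on the filter, and the counts of rises with both agents include it.

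Among the falls, Dnajc12, known as a co-chaperone of aromatic amino acid hydroxylases, read 1972, 2133 and 3405 in media, 1335, 1229 and 1101 with anti-IgM, 844, 969.5 and 1375 with CpG, 883, 1275 and 1545 with PL2-3 and 679.7, 1070.1 and 744 with both agents. Its changes were -0.95 ± 0.25 with anti-IgM, -1.17 ± 0.25 with CpG, -0.97 ± 0.25 with PL2-3 and -1.49 ± 0.25 with both agents (limma adjusted p 0.000225 to 0.014). Dnajc9, a histone chaperone, read 9681, 10413 and 16537 in media, 5551, 5440.1 and 9187 with anti-IgM, 6964, 5400.0 and 9452 with CpG, 5949, 4753 and 9496 with PL2-3 and 10049, 6938 and 6731 with both agents. The changes were -0.85 ± 0.22 with anti-IgM, -0.74 ± 0.22 with CpG, -0.87 ± 0.22 with PL2-3 and -0.60 ± 0.22 with both agents (limma adjusted p 0.00828 to 0.0385). Media replicate 3 was the highest array for both genes. With the arrays scaled to the same median, only the fall of Dnajc12 with both agents remained and Dnajc9 turned positive there without passing the test.

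Dnajc17, a J protein of the spliceosome, read 14326, 17109.5 and 23194 in media, 11415, 8721 and 13828 with anti-IgM, 7135, 9546 and 13338 with CpG, 7426, 10239 and 14822 with PL2-3 and 15176, 17923 and 13023 with both agents. Its changes were -0.68 ± 0.22 with anti-IgM, -0.88 ± 0.22 with CpG, -0.77 ± 0.22 with PL2-3 and -0.23 ± 0.22 with both agents. The first 3 passed the test (limma adjusted p 0.0407, 0.00665 and 0.016), but its other tested probe set was positive with anti-IgM (0.14) and CpG (0.30). Dnajc10, a disulfide reductase of the ER, read 5488, 4768 and 7708 in media, 3583, 3890.2 and 5077 with anti-IgM, 3375, 3976 and 5154 with CpG, 4033, 3573 and 5775 with PL2-3 and 5379, 5396 and 5203 with both agents. The changes were -0.50 ± 0.16 with anti-IgM, -0.51 ± 0.16 with CpG, -0.42 ± 0.16 with PL2-3 and -0.14 ± 0.16 with both agents. It fell with anti-IgM and CpG (limma adjusted p 0.0419 and 0.0265), with overlapping groups. All of these calls of Dnajc17 and Dnajc10 were lost with the arrays scaled to the same median.

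Dnajc14, an ER membrane J protein, had signals of 3472, 2712 and 3702 in media, 2501, 2865 and 2957 with anti-IgM, 1939, 2428 and 2956 with CpG, 1709.6, 2327 and 2253 with PL2-3 and 1343, 2481 and 2621 with both agents. The changes were -0.23 ± 0.22 with anti-IgM, -0.43 ± 0.22 with CpG, -0.63 ± 0.22 with PL2-3 and -0.64 ± 0.22 with both agents. Dnajc28 read 722, 427 and 947 in media, 723, 741 and 528 with anti-IgM, 298, 534 and 291 with CpG, 243, 255 and 348 with PL2-3 and 319.9, 327 and 341 with both agents. Its changes were -0.02 ± 0.34 with anti-IgM, -0.77 ± 0.34 with CpG, -1.07 ± 0.34 with PL2-3 and -0.88 ± 0.34 with both agents. Both fell with PL2-3 and with both agents (limma adjusted p 0.0408 and 0.0254, and 0.0268 and 0.0457). These 4 calls were lost with the arrays scaled to the same median, where Dnajc14 turned positive with both agents.

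**Figure D3:**
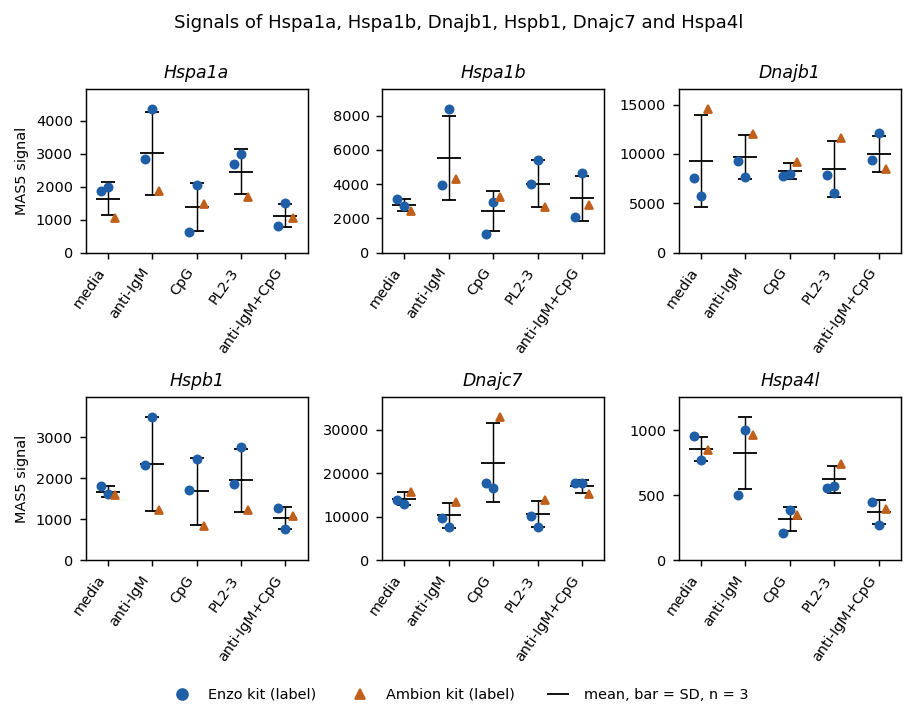
MAS5 signal (linear axis from 0) on each array for the heat-inducible genes Hspa1a, Hspa1b, Dnajb1 and Hspb1 and for Dnajc7 and Hspa4l, drawn as in the plot of the rising genes. The first 4 overlap between media and most stimulated groups; Dnajc7 is highest with CpG and Hspa4l is lowest with CpG and with both agents.

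The members were then compared between stimuli, to ask whether receptor, TLR9 and combined signals differ in the chaperones they raise. These comparisons share arrays with one another and with those above. The 2 groups' signals did not overlap for 13 members in CpG against anti-IgM (18.7% of all genes), 7 in PL2-3 against anti-IgM (9.7%), 13 in PL2-3 against CpG (14.4%) and 11 in PL2-3 against anti-IgM+CpG (17.4%). CpG against anti-IgM gave 1 member higher and 1 lower, where 2.57% and 3.84% of all tested genes were (6.41% either way). PL2-3 against anti-IgM gave 0 members by limma (0.691% of all genes, 0.342% higher and 0.35% lower), with 2 (2.9%) at an unadjusted p under 0.05, as were 7.18% of all genes. PL2-3 against CpG gave 1 member lower (1.6% of all genes) and 0 higher (1.6%, or 3.2% either way). PL2-3 against anti-IgM+CpG gave 0 (1.84% of all genes, 1.32% higher and 0.517% lower), with 13 (18.8%) at an unadjusted p under 0.05, as were 20.4% of all genes. The last count was 10 lower with the arrays scaled to the same median (14.5%, against 8.3% of all genes), 2 higher and 4 lower on Enzo arrays only, and 2 higher and 5 lower without anti-IgM+CpG replicate 3. The share of all genes is given for the first of these settings alone.

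Dnajc7 was the member called both for CpG against anti-IgM and for PL2-3 against CpG. It holds HSP70 and HSP90 together through its repeat domains. Its signals were 13774, 12956 and 15823 in media, 9852, 7799.7 and 13470.4 with anti-IgM, 17782, 16653 and 32924 with CpG, 10319.5, 7771 and 13859.5 with PL2-3 and 17889, 17812 and 15324 with both agents. CpG arrays were above all media, anti-IgM and PL2-3 arrays, and CpG replicate 3 was the highest of all. Dnajc7 was higher with CpG than with anti-IgM by 1.07 ± 0.20 (limma adjusted p 0.00297; 0.000238 to 0.0322 over 19 alternatives, all called), by 0.97 on the Enzo arrays and 1.28 on the Ambion array. PL2-3 was lower than CpG by -1.04 ± 0.20 (limma adjusted p 0.00739), a call lost without CpG replicate 3 (0.0675), without PL2-3 replicate 2 (0.0523) and without a labelling term (0.0612). Against media its changes were -0.48 ± 0.20, 0.59 ± 0.20, -0.45 ± 0.20 and 0.26 ± 0.20, of which only that with CpG passed (limma adjusted p 0.0353, with 10 of 19 alternatives called), and that with both agents was -0.14 with the labelling class read from the actin ratio.

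Hspa4l, the third HSP110 gene, went the other way. Its signals were 952, 773 and 848 in media, 506, 1004 and 964 with anti-IgM, 211, 388 and 352 with CpG, 554, 575 and 743 with PL2-3 and 450.1, 272 and 399 with both agents. Against media it changed by -0.10 ± 0.30 with anti-IgM, -1.28 ± 0.30 with CpG, -0.42 ± 0.30 with PL2-3 and -1.07 ± 0.30 with both agents. It fell with CpG (limma adjusted p 0.00468, called in all 18 alternatives) and with both agents (0.0101, 14 of 17). CpG was below anti-IgM by -1.17 ± 0.30 (limma adjusted p 0.0277; 0.0163 to 0.208 over 18 alternatives, 10 of them called), with no overlap of the arrays. One of its 4 other tested probe sets was positive with CpG (0.14) and with both agents (0.20).

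The pair Hspa1a and Hspa1b was lower with CpG than with anti-IgM by -1.14 ± 0.36 and -1.21 ± 0.39, which missed the threshold (limma adjusted p 0.0811 and 0.082). With the replicate number as a block, both passed (limma adjusted p 0.0357 and 0.0283) and the count rose to 1 higher and 3 lower. Replicate 3 is the Ambion-labelled array of every group, so this block overlaps with the labelling kit. PL2-3 against CpG gave 0.89 ± 0.36 and 0.78 ± 0.39 without a call.

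Over the 20 members that rose in all 4 comparisons against media, the differences ran from -0.21 to 0.42 for CpG against anti-IgM, -0.04 to 0.35 for PL2-3 against anti-IgM, -0.25 to 0.29 for PL2-3 against CpG and -0.49 to -0.01 for PL2-3 against anti-IgM+CpG, with 0 called. Their 95% intervals lay within 1 log2 unit of 0 except that of Dnajc27 for CpG against anti-IgM, which reached 1.12, and the lowest bound was -0.99. These 20 were picked for rising with every stimulus on these same arrays, a choice that favours small differences between stimuli. A missed threshold does not show that the stimuli act alike, and differences of up to those bounds remain possible.

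**Figure D4:**
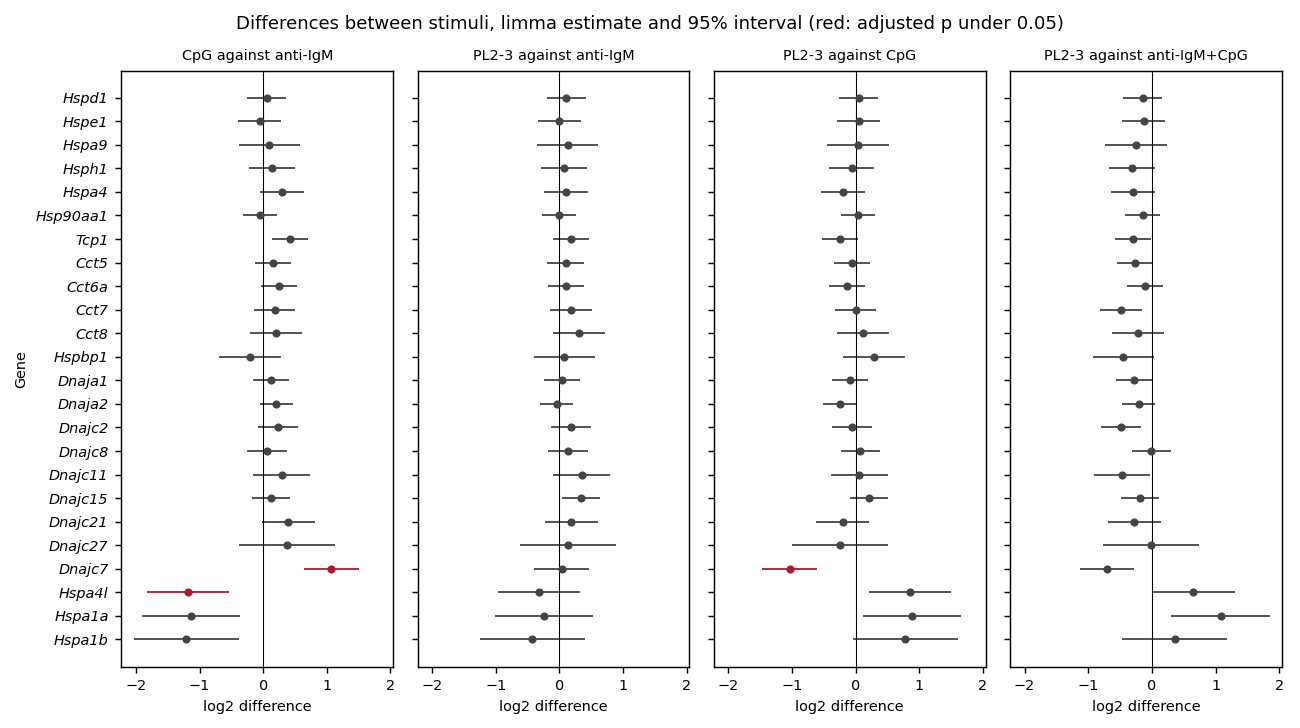
Log2 difference between stimuli (horizontal axis, point) with its 95% interval (line) for 24 members in rows; each panel is 1 comparison, and red marks a limma adjusted p under 0.05. The upper 20 rows are the members that rose in all 4 comparisons against media; all their estimates lie below 0 for PL2-3 against anti-IgM+CpG, and the red points are Dnajc7 and Hspa4l.

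Of 49 tested co-chaperones and regulators 20 rose and 0 fell with anti-IgM, 24 and 1 with CpG, 21 and 2 with PL2-3 and 27 and 3 with both agents, with medians of 0.37, 0.45, 0.44 and 0.66. As shares, 40.8%, 49%, 42.9% and 55.1% rose and 0%, 2.04%, 4.08% and 6.12% fell, against 10.1%, 13.1%, 12.4% and 17.2% and 9.32%, 16.9%, 13.5% and 24.8% of all genes. Hsf1 was not analysed here, and Hsf2, a heat shock factor, was not called (-0.03 ± 0.38, -0.0047 ± 0.38, 0.27 ± 0.38 and -0.23 ± 0.38). Fkbp4, an immunophilin of the HSP90 receptor cycle, rose by 1.38 ± 0.21, 1.60 ± 0.21, 1.69 ± 0.21 and 1.56 ± 0.21. Ruvbl1 and Ruvbl2, the ATPases of the R2TP assembly complex, rose by 1.26 ± 0.20 and 1.36 ± 0.14 with anti-IgM, 1.45 ± 0.20 and 1.63 ± 0.14 with CpG, 1.35 ± 0.20 and 1.74 ± 0.14 with PL2-3 and 1.87 ± 0.20 and 1.72 ± 0.14 with both agents. The prefoldin subunits Pfdn2 and Pfdn4, which hand chains to CCT, rose by 1.76 ± 0.16 and 1.74 ± 0.14 with CpG. Clpb, a mitochondrial disaggregase, rose by 2.04 ± 0.47 with both agents.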

How the data were processed

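The authors deposited 1 table of probe set signals for the 15 arrays, a linear intensity from MAS5 per the submitters' processing notes; the sources used here gave no version or target value. Per the labels, RNA came from Qiagen RNeasy columns, and labelling used the Enzo kit (replicates 1 and 2) or the Ambion kit (replicate 3). Of 45037 probe sets, 34945 had 1 symbol in the platform annotation, 932 several and 9160 none listed, and 34741 matched a RefSeq gene; 64 control probe sets were left out. Each gene was represented by its brightest probe set on average.

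Genes that reached the array median on 3 or more arrays were tested on the scale log2(signal + 75.2), the added value being the 20th percentile, so changes of dim genes are understated. One limma model with group and labelled kit was fitted over all 15 arrays (lmFit, eBayes with trend, 9 residual degrees of freedom, two-sided). The smallest two-sided exact permutation p for 3 arrays against 3 is 0.1, so no exact test was used; precision is limited by the number of arrays. Tools were limma 3.58.1 and jsonlite 2.0.0 under R 4.3.3, and pandas 2.3.3 and matplotlib 3.10.9 under Python 3.11.15. The fit was tested on simulated data. The anti-IgM+CpG group rests on its titles, since its treatment field says none. One further marker on the B cell list is not reported here.

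The members, lists and tests were chosen with earlier results of these data known. Named members were the 8 largest rises and 6 largest falls against media (5 each way between stimuli) that were called and had 1 direction in all 3 same-numbered pairs, a fixed set of core genes, and among co-chaperones Hsf2 and up to 3 largest per comparison; other names were added to account for a count after values were seen. Replicate numbers were checked on deviations from group means: all 18 same-numbered pairs of arrays outside anti-IgM+CpG correlated above 0.1 (0.12 to 0.68), against 8 of 36 differently numbered ones, and 0 of 12 with an anti-IgM+CpG array did. Replicate 3 was labelled with the Ambion kit in every group, so this contrast cannot tell a pairing by number from the kit. The 8 differently numbered pairs above 0.1 all joined a replicate 1 with a replicate 2.

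Alternatives were 2 other scalings, 2 pseudocounts (none, and 245, the 40th percentile), 2 filters, other labelling terms, a replicate block, Enzo arrays only, no anti-IgM+CpG arrays, no trend, the mean of probe sets, and leaving out each array.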

Additional observations from a re-analysis of the deposited data

How the results depend on the processing

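Against media, counts of called members stayed within 1.5 times under every alternative except anti-IgM on Enzo arrays only (14). Leaving out 1 array gave 17 to 22 with anti-IgM, 26 to 32 with CpG, 20 to 27 with PL2-3 and 29 to 35 with both agents. Between stimuli, CpG against anti-IgM (2) gave 1 with the arrays scaled to the same median or without a filter, 4 with the labelling class from the actin ratio or without the anti-IgM+CpG arrays, and 1 to 3 leaving out 1 array. PL2-3 against CpG (1) gave 0 without a labelling term and 0 to 1 leaving out 1 array. PL2-3 against anti-IgM+CpG (0) gave 10 with the same median, 6 on Enzo arrays only and 0 to 7 leaving out 1 array. PL2-3 against anti-IgM gave 0 throughout. These counts are given without shares over all genes. The causes were not tested.

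With the replicate block the counts were 25, 35, 28 and 37 against media, 4 for CpG against anti-IgM, 0 for PL2-3 against anti-IgM, 1 for PL2-3 against CpG and 0 for PL2-3 against anti-IgM+CpG. Of 113 called gene and comparison pairs named by the rule, it ended 1 call.

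None of those 113 changed sign under any alternative. Outside them, 2 members called higher with both agents changed sign with the mean of probe sets (Dnajc13 -1.13, Dnajc21 -0.16) and 2 called lower did with the same median (Dnajc9 0.11, Dnajc14 0.05). Most calls were lost on Enzo arrays only (28), with the mean of probe sets (28 calls), with the same median (21 calls) and without media replicate 3 (21 of 110). Of members called higher, 10 of 21 held in all alternatives with anti-IgM, 14 of 27 with CpG, 15 of 21 with PL2-3 and 16 of 28 with both agents; of those called lower, 0 of 4, 1 of 8, 0 of 7 and 1 of 10 did. Every called member had the same sign on Enzo and on Ambion arrays. The calls were made on these same arrays, and each group had 1 Ambion-labelled array, so this is no independent check. Among called members with other tested probe sets, 5 of 17 had one going the opposite way with anti-IgM, 12 of 24 with CpG, 4 of 19 with PL2-3 and 10 of 27 with both agents.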

Other observations

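The ER chaperones that the member rule left out did not move as a block. Dnajb11, a J protein of the ER, rose by 0.88 ± 0.21 with anti-IgM, 0.84 ± 0.21 with PL2-3 and 0.97 ± 0.21 with both agents, and its change with CpG was 0.43 ± 0.21. Hspa5, the HSP70 of the ER, rose with both agents alone (0.85 ± 0.24) among the 4 comparisons with media, where it was 0.58, 0.39 and 0.45 with anti-IgM, CpG and PL2-3. Hsp90b1, the HSP90 of the ER, fell by 0.88 with CpG, and its change with anti-IgM was 0.29 ± 0.30. Dnajb9 rose by 1.12 ± 0.26 with CpG and 0.80 ± 0.26 with both agents. Of the 5 genes, CpG against anti-IgM gave 1 call, lower (3.84% of all genes). PL2-3 against anti-IgM, CpG and anti-IgM+CpG gave 0 (0.691%, 3.2% and 1.84% of all genes either way). By limma 1 of the 5 rose with anti-IgM, 1 rose and 1 fell with CpG, 1 rose with PL2-3 and 3 rose with both agents. In that order 10.1%, 13.1%, 12.4% and 17.2% of all tested genes rose and 9.32%, 16.9%, 13.5% and 24.8% fell.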
